A study of Mus musculus with 2 samples.

Results

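The AGM VE-cadherin-positive wells of the E9.5 chip are single cells sorted from the aorta-gonad-mesonephros (AGM) region of wild-type C57Bl/6 mouse embryos at embryonic day 9.5. A well belongs here if its State in the deposited E9.5 metadata names the AGM and the VE-cadherin-positive gate and if it has at least 500 detected genes. All 299 wells with that State passed, the poorest with 708 genes, out of 1283 sorted wells of the chip and 2644 sorted wells with at least 500 genes in the series. Cells had been stained with an antibody to VE-cadherin and with 7AAD, a dye that enters dead cells, sorted, and dispensed on an ICELL8 nanowell chip on which wells imaged with 1 living, Hoechst-positive cell were chosen. The same chip held 354 AGM VE-cadherin-negative wells, 325 yolk sac VE-cadherin-positive wells and 305 yolk sac VE-cadherin-negative wells of the same age and strain, 46 positive control wells, into which only RNA from the embryonic stem cell line E14FF had been dispensed, and 48 negative control wells. The E11.5 chip of the series entered no comparison. The pool is 1 sample: the labels name no embryo or litter, so wells are not replicates, no test across samples exists, and every interval below is an exact 95% interval that covers counting error only.

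VE-cadherin, the product of Cdh5, is the adhesion protein of endothelial cell junctions, so the gate takes endothelial cells and the cells that have just left them. In the AGM the paired dorsal aortae form from such cells. Arterial cells are set apart by Notch signalling and SoxF factors, venous cells by Nr2f2, and haemogenic endothelium, marked by the transcription factor Runx1, turns into blood cells by an endothelial-to-haematopoietic transition.

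The 299 wells held 1902499 counts, between 1722 and 21410 per well with a median of 5832, and between 708 and 5125 genes with a median of 1831. Haemoglobin transcripts took a median of 24.4% of a well's counts, against 4.54% in AGM negative wells, 19.0% in yolk sac positive wells and 0.806% in control RNA wells. The row Gm42418, which overlaps ribosomal RNA sequence, took a median of 10.4%, with a range of 1.95% to 34.7%. Haemoglobin, mitochondrial and Gm42418 rows were therefore left out of the totals, which leaves 1206992 counts as the base of CPM (counts scaled to a pool total of 1e+06) in this pool, against 1312999 in the AGM negative pool and 952294 in the yolk sac positive pool. Of the pool's well barcodes, 78 were also used on the E11.5 chip and 0 were used again on this one.

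The pool bore its label. Cdh5 had 0 to 12 counts per well with a median of 2 and was found in 266 wells (89.0%), against 6.78% of AGM negative wells. Kdr, the main receptor of vascular endothelial growth factor, was found in 67.2% of wells, against 3.95% of AGM negative wells. Emcn, the sialomucin endomucin, was found in 58.2% of wells, against 2.54% of AGM negative wells. Of the 5 markers Cdh5, Kdr, Emcn, Cldn5 and Egfl7, at least 3 had a count in 181 wells (60.5%), against 1 of 354 AGM negative wells, 96 of 325 yolk sac positive wells (29.5%) and 0 of 46 control RNA wells. In 6 wells none of the 5 had a count. Over a list of 16 endothelial genes a well held between 1 and 16, with a median of 8, against a median of 0 in AGM negative wells and 7 in yolk sac positive wells. Yolk sac positive wells were shallower, with a median of 2614 counts outside the excluded rows, against 3607 in AGM positive wells.

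Set against the AGM negative pool, 508 of 5483 genes with 50 or more counts in either pool were at least 2-fold higher (9.27%) and 568 at least 2-fold lower (10.4%), around a median log2 ratio of -0.07. The 16 endothelial genes were all among the higher ones, with a median log2 ratio of 5.20, and Cdh5 encodes the sorted protein itself. Cdh5 stood at 688 CPM in the AGM positive pool and 19.0 CPM in the AGM negative pool, a log2 ratio of 5.18 (4.60 to 5.81). Cldn5, the claudin of endothelial tight junctions, stood at 139 and 1.52 CPM, a log2 ratio of 6.51 (4.64 to 9.57). Sox7, a SoxF transcription factor of early endothelium, stood at 67.1 and 0.762 CPM, a ratio of 6.46 (3.94 to 11.78) on the log2 scale. S1pr1, the sphingosine-1-phosphate receptor of vessels, stood at 118 and 1.52 CPM (6.27, 4.39 to 9.33). The wide upper limits come from 1 or 2 counts in the AGM negative pool, which holds for all 12 genes at the head of this comparison: Gngt2, Klhl4, Cldn5, Sox7, Cd38, Egfl7, S1pr1, Exoc3l4, S100a16, Tie1, Grap and Epas1. Tie1 is the orphan partner of the angiopoietin receptor and Epas1 the hypoxia-inducible factor 2 alpha subunit.

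Genes of the mesenchymal list (Pdgfra) and of the somite list (Meox1 and Pax3) were among the 12 furthest below the AGM negative pool. Pdgfra, the platelet-derived growth factor receptor of mesenchyme, had 1 count in the AGM positive pool and 191 in the AGM negative pool (log2 ratio -7.46, -12.77 to -4.96). Meox1, a somite homeobox gene, had 1 and 144 counts (-7.05, -12.36 to -4.55). Crabp2, a retinoic acid-binding protein, had 8 counts in the AGM positive pool and 750 in the AGM negative pool, where it was found in 85.0% of wells (-6.43, -7.65 to -5.44). The others of the 12 were Pax3, Srgap3, Cdh11, Arg1, Sox2ot, Dcc, Fras1, Kif5c and Gas1, each with 1 or 2 counts in the AGM positive pool. A list of 12 mesenchymal genes summed to 47.2 CPM in the AGM positive pool and 647 CPM in the AGM negative pool, and a list of 10 somite and muscle genes to 13.3 and 306 CPM. Pax2, Pax8, Lhx1, Osr1, Wt1 and Emx2, 6 of 8 nephric genes, had no count in the AGM positive pool. The nephric list summed to 8.29 and 82.3 CPM. Dppa3, Dnd1, Pou5f1, Nanog and Tfap2c, 5 of the 7 germ cell genes in the table, also had none. The other 2, Prdm1 and Ddx4, had 40 counts. The germ cell list was therefore not lower as a whole, at 33.1 and 39.6 CPM (log2 ratio -0.26, -0.89 to 0.37).

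The trunk position genes were low in the endothelial wells. The 13 Hox genes of groups 5 to 10 in the table summed to 75.4 CPM in the AGM positive pool, against 302 CPM in the AGM negative pool and 55.7 CPM in the yolk sac positive pool. Hoxa7 had 23.2 CPM in the AGM positive pool, in 9.03% of wells, against 93.7 CPM in the AGM negative pool and 4.20 CPM in the yolk sac positive pool (log2 ratios -2.01, -2.66 to -1.41, and 2.47, 0.95 to 4.44). Hoxb9 had 1.66 CPM in the AGM positive pool, or 2 counts, and 45.7 CPM in the AGM negative pool (log2 ratio -4.79, -7.86 to -2.87).

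Set against the yolk sac positive pool, fewer genes stood apart: 130 of 4701 were at least 2-fold higher (2.77%) and 238 at least 2-fold lower (5.06%), around a median log2 ratio of 0.04. Of the 16 endothelial genes 1 was called, Emcn, with 291 CPM in the AGM positive pool and 87.2 CPM in the yolk sac positive pool (log2 ratio 1.74, 1.39 to 2.10). The list's median log2 ratio was -0.17. Among wells with 3 or more of the 5 markers, a choice that itself uses Emcn, the Emcn ratio was 0.87. Cdh5 differed little, at 688 and 701 CPM (-0.03, -0.18 to 0.12), and so did Kdr, at 428 and 471 CPM (-0.14, -0.33 to 0.04).

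Several of the genes furthest above the yolk sac positive pool were at least as high in the AGM negative pool. Lef1, a transcription factor of the Wnt pathway, had 48.9 CPM in the AGM positive pool, 103 CPM in the AGM negative pool and 2.10 CPM in the yolk sac positive pool (log2 ratio to yolk sac 4.54, 2.62 to 7.62). Cdh2, N-cadherin, had 80.4 CPM in the AGM positive pool, 196 CPM in the AGM negative pool and 9.45 CPM in the yolk sac positive pool (3.09, 2.10 to 4.26). Tagln, the smooth muscle protein transgelin, had 62.1, 69.3 and 8.40 CPM in the AGM positive, AGM negative and yolk sac positive pools (2.89, 1.83 to 4.15), and 22.7% of its counts lay in 1 well. Acta2, smooth muscle actin, had 50.5, 67.0 and 14.7 CPM in the same order of pools. Fxyd6, a regulator of the sodium-potassium pump, had 77.9, 101 and 11.6 CPM (2.75, 1.85 to 3.80). Whether free RNA or other cells of the AGM had a part in these levels was not tested. The mesenchymal list stood at 47.2 CPM in the AGM positive pool and 647 CPM in the AGM negative pool, and was not tested as a measure of such RNA or cells.

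For 5 of the 12 leading genes a single well carried much of the total. Kdm6b, a histone demethylase, had 125 counts, 110 of them in 1 well, and without that well its log2 ratio of 3.04 became -0.02. The share of 1 well was 73.9% for Ica1l, 62.7% for Rhbdd1, 64.7% for Pus7 and 49.0% for Notch3. Leaving out each gene's highest well left 71 genes 2-fold above the yolk sac positive pool.

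The 12 genes furthest below the yolk sac positive pool hold scavenger receptors and myeloid genes. Stab2, a hyaluronan scavenger receptor, had 25.7 CPM in the AGM positive pool, in 9.36% of wells, against 1364 CPM and 88.6% of wells in the yolk sac positive pool (log2 ratio -5.73, -6.29 to -5.22). Maf, a transcription factor, had 4.97 and 300.3 CPM (-5.92, -7.38 to -4.78). Gpr182, a receptor of lymphatic and sinusoidal endothelium, had 4 counts against 136 (-5.43, -7.33 to -4.04). Of 7 scavenger genes 6 reached 50 counts in either pool and all 6 were lower, against 5.06% of all genes tested. Among them were Lyve1 at 40.6 and 1382 CPM and Mrc1 at 12.4 and 531 CPM. Only 2 of the 7 had 50 or more counts in the AGM positive pool, so the filter favours lower calls. Tyrobp, Lyz2, Ccl6, Bin2, Ifi27l2a, Tspan7, Cd36 and Fcgrt had 1 to 3 counts in the AGM positive pool, and Retnla had 0 counts, which puts its log2 ratio at or below -5.80 with a floor of 3 counts per pool. The macrophage list of 11 genes summed to 61.3 CPM in the AGM positive pool, with Adgre1, C1qb, C1qc and Cd68 at 0, against 502 CPM in the yolk sac positive pool. The part of these macrophage transcripts in the yolk sac values was not tested.

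Of 4408 genes, 25 stood at least 2-fold above all 3 other pools of the chip with 50 or more counts and a count in 10% or more of wells (0.567%). Hapln1, which links hyaluronan to proteoglycans in the matrix, was found in 223 wells with 0 to 25 counts and a median of 1. It stood at 522 CPM, against 32.0 CPM in the AGM negative pool and 165 CPM in the yolk sac positive pool (log2 ratios 4.03, 3.58 to 4.52, and 1.66, 1.41 to 1.92). Piezo2, a mechanically gated ion channel, stood at 162, 13.7 and 34.7 CPM in the AGM positive, AGM negative and yolk sac positive pools, and was found in 35.1% of AGM positive wells. Trpc6, a cation channel, stood at 63.0, 3.05 and 5.25 CPM. Tmem255a, a membrane protein, stood at 57.2, 1.52 and 5.25 CPM. Vwf, von Willebrand factor, stood at 56.3, 15.99 and 22.1 CPM, and Bgn, the proteoglycan biglycan, at 76.2, 11.4 and 24.2 CPM. The remaining genes of the leading 15 were Pus7, Emcn, Rapgef4, Zbtb7c, Enc1, Spata6, Exoc3l4, Oprd1 and Crmp1. Over the leading 15, 1 well held 3.26% to 8.82% of a gene's counts, except in Oprd1 (26.5%), Zbtb7c (19.8%) and Pus7 (64.7%).

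**Figure D1:**
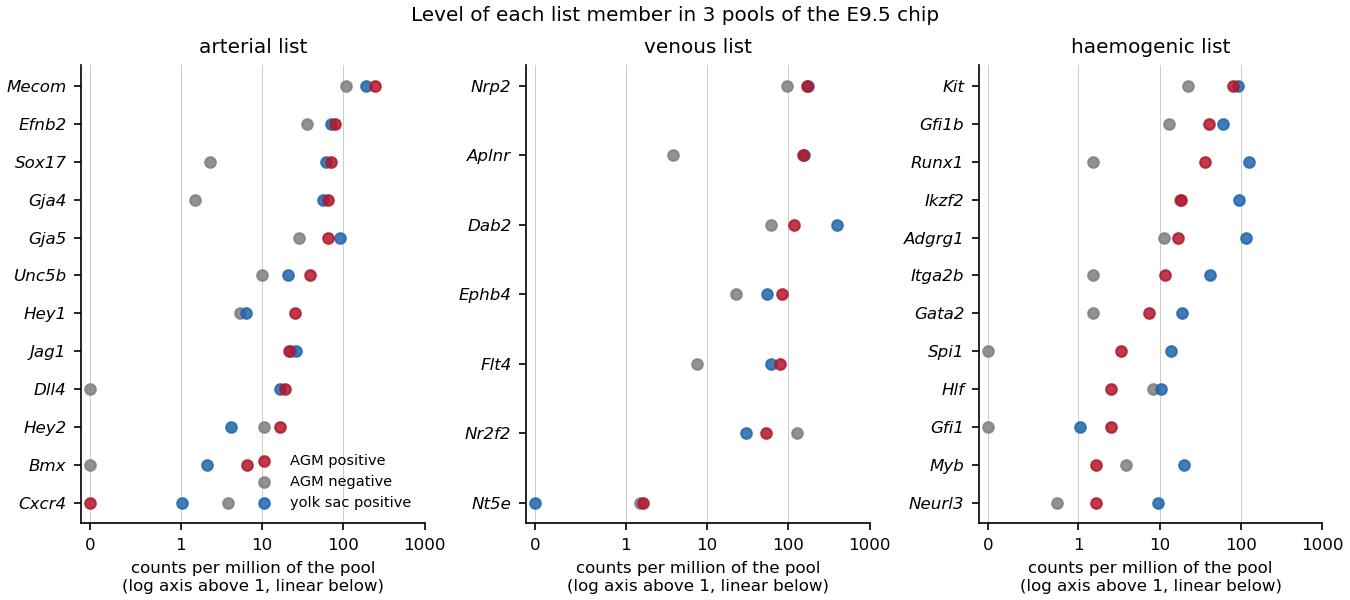
Level of every member of the arterial, venous and haemogenic lists in CPM in the AGM positive, AGM negative and yolk sac positive pools of the E9.5 chip (axis linear below 1 and logarithmic above; each point is 1 pool, with no replicate). The AGM positive and yolk sac positive points lie close for Sox17 (69.6 and 62.0) and apart for Runx1 (36.5 and 126) and Dab2 (116 and 395).

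Of 12 arterial genes 11 had a count, and Cxcr4, the chemokine receptor, had none. Summed, the list stood at 652 CPM in the AGM positive pool, 228 CPM in the AGM negative pool and 549 CPM in the yolk sac positive pool. Mecom, a transcription factor that also acts in blood stem cells, had 0 to 30 counts per well and was found in 45.5% of wells, with 245, 107 and 190 CPM in those pools. Sox17, the SoxF factor of arteries, had 0 to 5 counts per well and was found in 72 wells (24.1%), with 69.6, 2.28 and 62.0 CPM. Gja4 and Gja5 encode the arterial connexins. Gja4 had 0 to 7 counts per well, and its level was 65.5, 1.52 and 56.7 CPM. Gja5 had 0 to 6 counts per well, and its level was 64.6, 28.2 and 91.4 CPM. Efnb2, the arterial ephrin ligand, had 0 to 4 counts per well, and its level was 78.7, 35.8 and 71.4 CPM. All 5 of these genes, the ones with 50 or more counts, were at least 2-fold above the AGM negative pool, against 9.27% of all genes tested. Efnb2, Gja4, Gja5 and Sox17 reached 50 counts in the AGM positive pool alone, so the filter favours higher calls. The number called is therefore no evidence about the list. From the yolk sac positive pool 0 of the 5 were 2-fold apart, with a median log2 ratio of 0.17. Of all genes, 2.77% were higher and 5.06% lower there.

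The arterial genes with fewer counts include those furthest above the yolk sac. Hey1, a Notch-induced transcription factor, had 31 counts in the AGM positive pool, in 8.36% of wells, or 25.7 CPM, against 5.33 CPM in the AGM negative pool and 6.30 CPM in the yolk sac positive pool (log2 ratio to yolk sac 2.03, 0.74 to 3.58). Hey2, its relative, had 20 counts or 16.6 CPM, against 10.7 and 4.20 CPM (to yolk sac 1.98, 0.40 to 3.99). Dll4, the Notch ligand of arteries, had 23 counts or 19.1 CPM, 0 counts in the AGM negative pool, and 16.8 CPM in the yolk sac positive pool, which puts it at least 3.06 above the AGM negative pool on the log2 scale with a floor of 3 counts. Unc5b, a netrin receptor, had 47 counts, Jag1, another Notch ligand, 26 and Bmx, a kinase of arterial endothelium, 8. None of these 6 reached 50 counts, so none could be called. Among the receptors, Notch4 stood at 55.5, 5.33 and 36.8 CPM in the AGM positive, AGM negative and yolk sac positive pools and Notch1 at 59.7, 34.3 and 70.4 CPM.

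Of 7 venous genes all had a count, and their sum was 655 CPM in the AGM positive pool, 323 CPM in the AGM negative pool and 868 CPM in the yolk sac positive pool. Dab2 alone gave 116, 60.9 and 395 CPM of these sums. Over the 6 members with 50 or more counts the median log2 ratio to the yolk sac positive pool was 0.17. The order of the 2 positive pools by sum thus rests on Dab2. Nr2f2, the transcription factor that sets venous identity, had 64 counts in 15.7% of wells, or 53.0 CPM, against 129 CPM in the AGM negative pool and 30.5 CPM in the yolk sac positive pool. Its log2 ratio was -1.28 (-1.72 to -0.86) to the AGM negative pool and 0.80 (0.15 to 1.49) to the yolk sac positive pool. Aplnr, the apelin receptor, had 0 to 6 counts per well and was found in 120 wells (40.1%), with 153, 3.81 and 154 CPM in the 3 pools. Ephb4, the venous receptor of ephrin B2, was found in 26.4% of wells, with 84.5, 22.8 and 54.6 CPM. Flt4, the receptor of vascular endothelial growth factor C, was found in 23.4% of wells, with 77.9, 7.62 and 60.9 CPM. Nrp2, a co-receptor of that family, was found in 38.1% of wells, with 168, 97.5 and 173 CPM. Dab2, an endocytic adaptor, stood at 116, 60.9 and 395 CPM, 2-fold below the yolk sac positive pool (log2 ratio -1.77, -2.06 to -1.48). Nt5e had 2 counts. Against the AGM negative pool 3 of the 6 members with 50 or more counts were called higher and 1 lower. The shares over all genes were 9.27% and 10.4%. The 3 called higher, Ephb4, Aplnr and Flt4, reached 50 counts in the AGM positive pool alone. Against the yolk sac positive pool 0 were called higher and 1 lower, beside 2.77% and 5.06% of all genes.

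Haemogenic genes were the lowest of the 3 lists against yolk sac endothelium. All 12 had a count, and the sum was 221 CPM in the AGM positive pool, 81.5 CPM in the AGM negative pool and 605 CPM in the yolk sac positive pool (log2 ratio of the sums to yolk sac -1.45, -1.67 to -1.24). Runx1 had 44 counts, 0 to 4 per well, and was found in 35 wells (11.7%), against 0.565% of AGM negative wells and 22.5% of yolk sac positive wells. Its level was 36.5, 1.52 and 126 CPM, with log2 ratios of 4.58 (2.64 to 7.67) to the AGM negative pool, which had 2 counts, and -1.79 (-2.32 to -1.28) to the yolk sac positive pool. The 2 AGM pools were alike in depth, with medians of 3607 counts outside the excluded rows in AGM positive wells and 3392 in AGM negative wells.

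Kit, the stem cell factor receptor, had 96 counts, 0 to 4 per well, in 23.7% of wells, with 79.5, 22.1 and 92.4 CPM. It was called above the AGM negative pool, as the 1 member with 50 or more counts in either AGM pool. Adgrg1, an adhesion receptor of emerging stem cells, stood at 16.6, 11.4 and 116 CPM (log2 ratio to yolk sac -2.80, -3.57 to -2.11). Ikzf2, a zinc finger factor, stood at 18.2, 17.5 and 95.6 CPM (-2.39, -3.13 to -1.71). With Runx1 these were the 3 members called lower than in the yolk sac positive pool, of 5 with 50 or more counts in either pool. None was called higher. Over all genes tested, 5.06% were lower and 2.77% higher. Runx1, Adgrg1, Ikzf2 and Gfi1b reached 50 counts in the yolk sac positive pool alone. The filter thus favours lower calls for them, and the number called is no evidence about the list. Itga2b, the integrin CD41 of early blood cells, had 14 counts, and Gata2, the upstream factor, had 9 in 7 wells. Gfi1, Hlf, Myb, Neurl3 and Spi1 had 2 to 4 counts each. Gfi1b, a partner of Gfi1 that red cell precursors also use, had 48 counts, or 0.114 per 1000 haemoglobin counts, against 0.232 in the AGM negative and in the yolk sac positive pool and 0.141 in the yolk sac negative pool. Runx1 had 0.104, 0.0273, 0.489 and 0.0496 counts per 1000 haemoglobin counts in those 4 pools, the second value from 2 counts. Kit had 0.228, 0.396, 0.359 and 0.00979, and Ikzf2 0.0521, 0.314, 0.371 and 0.0259. The source of these transcripts in the pools was not tested. Among 12 general blood cell genes, Ptprc (CD45) had 2 counts and Coro1a 1, Lcp1 had 152 (126, 2.28 and 95.6 CPM) and the list summed to 276, 43.4 and 650.01 CPM in the AGM positive, AGM negative and yolk sac positive pools.

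Wells were next classed one by one. Each well was thinned to 2000 counts outside the excluded rows, so that all wells were read at 1 depth, which 287 of the 299 wells allowed. A well was called arterial, venous or haemogenic if at least 2 genes of that list had a count. By that rule 83 wells (28.9%, 23.7% to 34.5%) were arterial, against 3.43% of 350 AGM negative wells, 16.6% of 247 yolk sac positive wells and 2.17% of 46 control RNA wells. Venous wells numbered 76 (26.5%, 21.5% to 32.0%), against 7.14% of AGM negative, 39.7% of yolk sac positive and 0% of control RNA wells. Haemogenic wells numbered 16 (5.57%, 3.22% to 8.90%), against 0.571%, 21.1% and 0%. The yolk sac positive interval was 12.2% to 21.8% for arterial, 33.5% to 46.1% for venous and 16.1% to 26.7% for haemogenic wells. These intervals cover counting within each pool, each pool is 1 sample, and no test of the difference was made. Among AGM positive wells with 3 or more of the 5 markers the venous share was 34.3%, inside the yolk sac positive interval. Without thinning the AGM positive shares were 51.5%, 53.8% and 17.7%.

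These classes are ranges of a count and not cell types. In the arterial list 106 wells had 0 genes, 98 had 1, 58 had 2, 15 had 3, 9 had 4 and 1 had 5; 98 wells therefore lay 1 gene below the limit and 58 at it. The venous list gave 89, 122, 53, 18, 4 and 1 wells with 0 to 5 genes, and the haemogenic list 185, 86, 14, 1 and 1 wells with 0 to 4 genes. Mecom had a count in 50 of the 83 arterial wells, and without it the arterial class held 53 wells (18.5%). Among venous wells Nrp2 had a count in 45 of 76, Aplnr in 44 and Dab2 in 30. Without Dab2 the venous class held 60 wells (20.9%). The yolk sac positive share without Dab2, a gene higher in that pool, was not computed. Among haemogenic wells Kit had a count in 10 of 16 and Runx1 in 8, and without Kit and Gfi1b the share fell to 2.44%, against 5.57% with them.

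**Figure D2:**
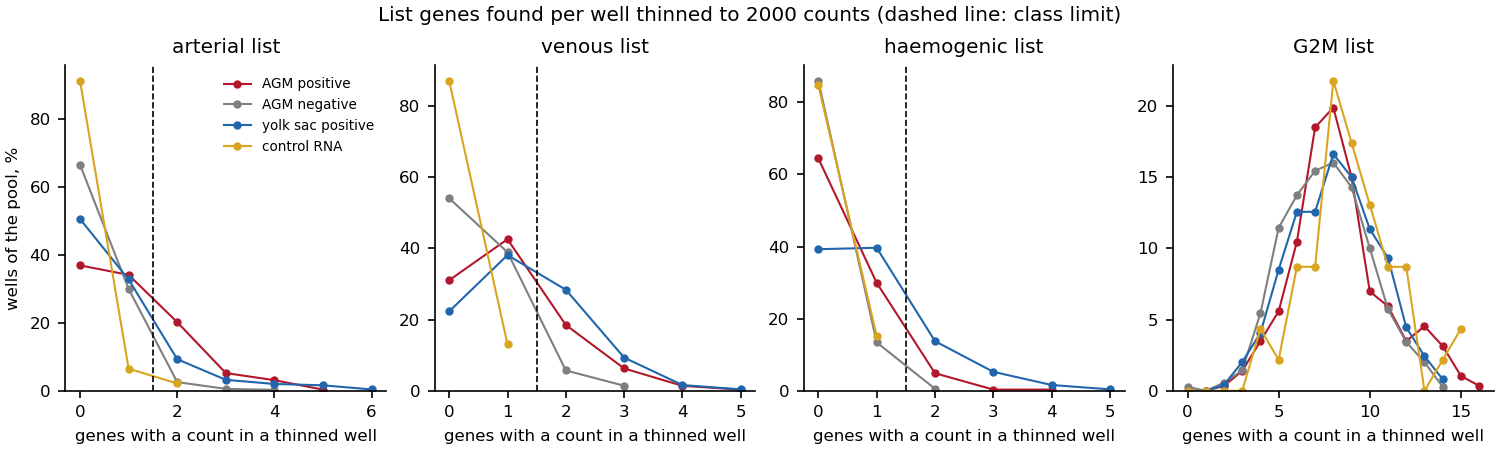
Share of wells, in percent, by the number of arterial, venous, haemogenic or G2M list genes with a count after thinning to 2000 counts per well, in AGM positive (287 wells), AGM negative (350), yolk sac positive (247) and control RNA wells (46). The dashed line marks the limit of a class; at 2, 3 and 4 genes the AGM positive curve lies above the yolk sac positive one in the arterial panel and below it in the venous and haemogenic panels, while 5 arterial genes were found in 1 AGM positive and 4 yolk sac positive wells, and the 4 G2M curves overlap.

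The arterial and venous classes overlapped. The median thinned well held 1 gene of each list, so these counts cannot show whether arterial and venous wells form separate groups. Of the 83 arterial wells 24 were also venous (28.9%, 19.5% to 39.9%), as were 52 of the 204 other wells (25.5%, 19.7% to 32.1%). The 24 wells are 31.6% of the venous class. Arterial genes alone marked 57 wells, venous genes alone 50, all 3 lists 1, and none of the 3 lists 141 wells (49.1%). Of the arterial wells 3 were haemogenic (3.61%, 0.752% to 10.2%), as were 13 of the others (6.37%, 3.44% to 10.7%). Across the 287 wells the summed arterial and venous counts had r = -0.05, where both sums come from sparse counts in the same wells, so the weak value is no finding.

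Some arterial genes, chosen here after their values were seen, shared more wells than others. Gja4 and Gja5 shared 8 wells: Gja5 was found in 23.5% of the 34 wells with Gja4 and in 9.49% of the 253 without it. Dll4 was found in 4 of the 35 wells with Efnb2 (11.4%) and in 7 of the 252 without it (2.78%). Dll4 was found in 0 of the 34 wells with Gja4, 0 of the 32 with Gja5 and 0 of the 39 with Sox17. In the wells without these genes it was found in 4.35%, 4.31% and 4.44%. With Dll4 in 11 thinned wells in all, these zeros cannot show that the genes lie in different wells. Sox17 was found in 9.38% of the wells with Gja5 and in 14.1% of those without it. Runx1, in 23 thinned wells, shared 4 of the 38 with Kit, 2 of the 10 with Itga2b and 0 of the 20 with Gfi1b. Gata2 was found in 3 thinned wells and Myb in 0, so their lack of wells shared with Runx1 shows nothing. These counts are small, and r was 0.16 for Gja4 with Gja5. Cdh5 was found in 16 of the 23 wells with Runx1 (69.6%) and in 189 of the 264 without (71.6%). Endothelial genes per thinned well had medians of 6 in arterial wells and 5 in the others, 5 in venous wells and 5 in the others, and 5 in haemogenic wells and 5 in the others. Depth before thinning was 5465 counts in the median arterial well and 6194 in the others, and 6714 in the median venous well and 5800 in the others.

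Cycling genes were found in nearly all wells. With 3 or more of 23 S phase genes or of 30 G2/M genes taken as cycling, 287 of 287 wells qualified, as did 349 of 350 AGM negative wells, 247 of 247 yolk sac positive wells and 46 of 46 control RNA wells, so the rule separates no group of wells here. S phase genes alone reached 3 in 267 wells (93.0%), against 343 of 350 AGM negative wells (98.0%), 229 of 247 yolk sac positive wells (92.7%) and 43 of 46 control RNA wells (93.5%). Mki67, the Ki-67 protein of dividing cells, had 0 to 34 counts per well with a median of 3 and was found in 276 of 299 wells (92.3%). Top2a, topoisomerase II alpha, had 0 to 22 counts with a median of 3 and was found in 280 wells (93.7%). Of the 23 S phase and 30 G2/M genes 0 were 2-fold apart from either other pool. The S phase sum stood at 3274, 3928 and 3125 CPM in the AGM positive, AGM negative and yolk sac positive pools, and the G2/M sum at 6151, 5439 and 5800 CPM.

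Wells differed in how much of the cycling lists each held, as they did for other lists. The G2/M sum of a thinned well ran from 2 to 32 with a median of 12, and its Fano factor, the variance over the mean, which is near 1 for pure counting, was 1.75, against 1.34 in AGM negative wells, 1.76 in yolk sac positive wells and 1.07 in control RNA wells, which all hold the same RNA. The S phase sum ran from 0 to 16 with a median of 6 and a Fano factor of 1.21, against 0.727 in control RNA wells. In the same AGM positive wells the Fano factor was 1.78 for the endothelial, 2.06 for the arterial and 1.67 for the erythroid sum. S phase and G2/M sums had r = 0.02 across wells. Mki67 and Cenpf, a kinetochore protein, had r = 0.18, Mki67 and Top2a 0.13, and Cenpf and Top2a -0.01.

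The promoters of these genes are shown because their known motifs part the cycling lists. Promoters are RefSeq sequences of GRCm38.p6, from 250 bases before the start to 50 after it, matched by symbol for 27 of 30 G2/M genes (29 promoters) and 20 of 24 S phase genes (23 promoters). TTTGAA, the core of the cell cycle homology region, was present on either strand in 22 of 29 G2/M promoters (75.9%) and 2 of 23 S phase promoters (8.70%), against 17.9% of all 32851 promoters. CCAAT was present in 75.9% of G2/M and 65.2% of S phase promoters, against 37.4% of all. TTTNNCGC, a form of the E2F site, was present in 6.90% of G2/M and 56.5% of S phase promoters, against 5.17% of all. Both strands were searched, and none of the 3 motifs lies within another. The promoters of the members with most counts that hold the motif follow, 5′ to 3′ on the gene's strand. Capitals mark TTTGAA and CCAAT on either strand in Mki67 (chr7:135716330-135716629, minus strand) and Top2a (chr11:99024140-99024439, minus strand), and TTTNNCGC on either strand in Mcm3 (chr1:20820263-20820562, minus strand) and Hells (chr19:38930740-38931039, plus strand). Mcm3 is a subunit of the replicative helicase and Hells a chromatin remodeller.
Mki67: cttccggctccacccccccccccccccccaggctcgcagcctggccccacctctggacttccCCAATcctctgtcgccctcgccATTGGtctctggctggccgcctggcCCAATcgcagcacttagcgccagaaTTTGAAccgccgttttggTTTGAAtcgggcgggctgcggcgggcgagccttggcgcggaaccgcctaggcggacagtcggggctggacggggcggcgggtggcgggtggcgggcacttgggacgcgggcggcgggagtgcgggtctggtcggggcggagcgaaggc
Top2a: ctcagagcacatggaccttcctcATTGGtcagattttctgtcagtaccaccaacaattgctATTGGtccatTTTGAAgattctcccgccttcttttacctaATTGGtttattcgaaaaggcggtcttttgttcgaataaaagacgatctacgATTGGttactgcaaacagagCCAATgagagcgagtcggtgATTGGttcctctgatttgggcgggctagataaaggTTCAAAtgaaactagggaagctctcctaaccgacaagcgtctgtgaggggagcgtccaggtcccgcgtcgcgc
Mcm3: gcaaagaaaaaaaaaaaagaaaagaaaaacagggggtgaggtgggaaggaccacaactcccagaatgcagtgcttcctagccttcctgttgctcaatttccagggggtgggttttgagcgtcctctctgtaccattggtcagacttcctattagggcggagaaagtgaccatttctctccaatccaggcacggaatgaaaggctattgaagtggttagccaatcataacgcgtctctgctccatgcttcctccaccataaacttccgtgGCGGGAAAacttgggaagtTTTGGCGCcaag
Hells: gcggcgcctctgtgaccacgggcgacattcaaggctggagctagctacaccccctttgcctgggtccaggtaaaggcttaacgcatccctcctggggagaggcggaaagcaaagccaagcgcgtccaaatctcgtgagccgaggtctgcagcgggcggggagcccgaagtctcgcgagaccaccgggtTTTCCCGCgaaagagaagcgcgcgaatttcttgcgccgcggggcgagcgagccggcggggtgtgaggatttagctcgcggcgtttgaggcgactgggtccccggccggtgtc
Mki67 holds 2 TTTGAA and 3 CCAAT, Top2a 2 and 6, Mcm3 2 TTTNNCGC and Hells 1. A match is a description of the letters and not a shown binding site.

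To find genes that vary among wells beyond the noise of the assay, the Fano factor of each gene in thinned wells was divided by the median Fano factor of the 50 genes nearest in mean in the control RNA wells. Of 5875 genes with a mean of 0.05 or more, 114 had a ratio of 2 or more (1.94%), around a median ratio of 1.11. The control wells measured against their own trend gave 31 of 5226 (0.593%). The leading gene, Gm17276, had a ratio of 51.4 with 68 of its 96 thinned counts in 1 well and 11 in the next. Ptpn11, the phosphatase SHP2, had a ratio of 24.5 with 44 of 75 counts in 1 well. Kdm6b had 17.1 with 21 of 28, and Notch3 12.5 with 19 of 34, in the same well that led Gm17276. None of these is a marker of an endothelial subtype in the lists used here.

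The largest ratios were mostly of that kind. Of the 114 genes 15 had 50% or more of their thinned counts in 1 well and 53 had 25% or more, and of the 25 with the largest ratios 14 had 50% or more. The 114 genes had their highest count in 54 wells. One well with 10030 counts led 7 of them, among them Ptpn11, Gm26816 and Ica1l, and another with 9260 counts led 7, among them Abl1, Akap7 and Greb1l. Leaving out each gene's highest well left 22 genes, all of them among the 114: Gm17276, Cmss1, Lars2, Ddb2, Dap, Ptpn11, Rplp1, Zbtb7c, Hmgb2, Camk1d, Slc25a21, Cdk8, Unc119b, Gm26561, Gm26694, Abl1, Lrrc20, Malat1, Sfta2, Gphn, Rbms2 and Dqx1. The highest well was left out of the AGM positive wells alone, while the control RNA wells kept all of theirs. Some of the fall from 114 to 22 genes is therefore built in. Doublet scoring with Scrublet marked 1 of the 299 wells and 10 of the chip's 1283 sorted wells (0.779%). The other genes of the 25 were Gm31518, Gm26816, 2810425M01Rik, 1700025F24Rik, D030028A08Rik, Pus7, Akap6, Rhbdd1, Kifc5b, Prss12, Mto1, Slc44a4, Dnajc12, Tnfaip8l1, Efcc1, Klf9 and Nt5dc1.

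**Figure D3:**
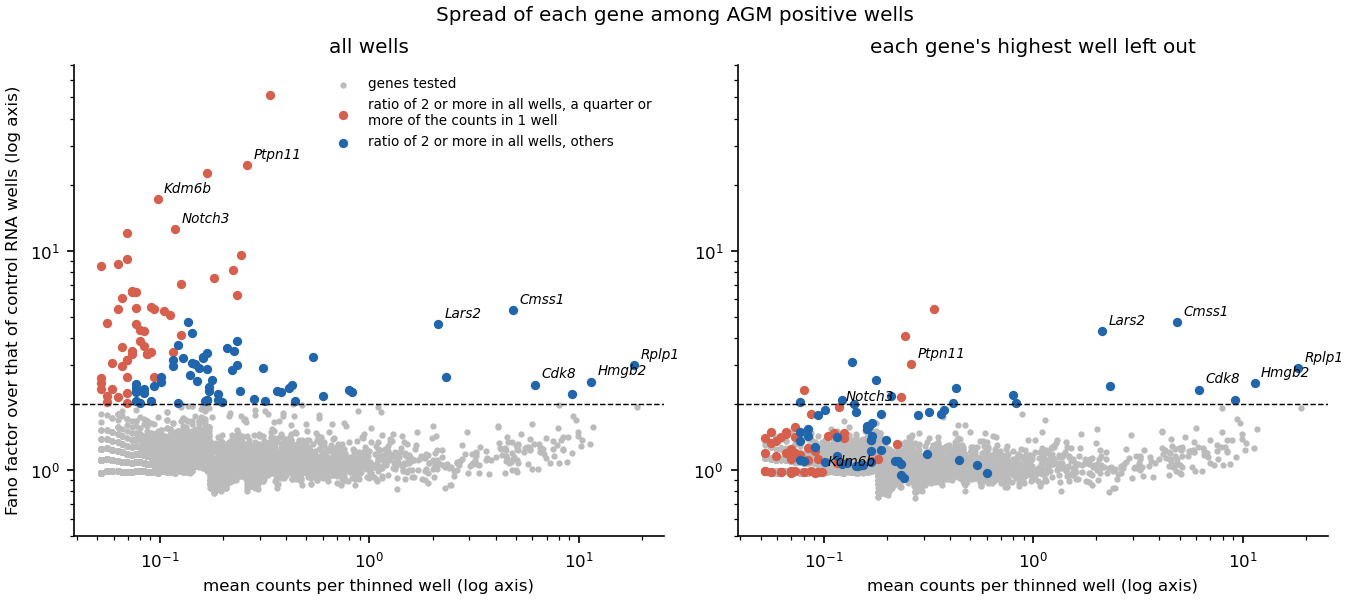
Fano factor of each gene among thinned AGM positive wells, divided by that of control RNA wells, against its mean count per well, with all 287 wells (left) and with each gene's highest well left out (right); both axes are logarithmic. Red points are called genes with 25% or more of their counts in 1 well, blue points the other called genes: 114 genes reach the dashed line at 2 on the left and 22 on the right, among them Cmss1 (5.37 and 4.73) and Rplp1 (2.998 and 2.904).

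Of the varying genes found in nearly all wells, Rplp1 and Hmgb2 followed depth. Rplp1, a ribosomal stalk protein, was found in 100% of wells with a mean of 18.4 thinned counts, and Hmgb2, a chromatin protein of dividing cells, in 99.3% with a mean of 11.4. Although every well was thinned to the same total, Rplp1 averaged 24.1 counts in the 96 shallowest wells, 17.7 in the 96 middle ones and 13.3 in the 95 deepest, and r with log10 depth was -0.61. Hmgb2 averaged 14.8, 11.7 and 7.72 counts in the same wells, with r = -0.58 with depth, and the sum of all ribosomal protein genes 528, 465 and 392. Mki67, by contrast, averaged 1.82, 1.92 and 2.52 and Cdh5 1.18, 1.56 and 1.49. Rplp1 and Hmgb2 had r = 0.70 with each other, the highest of all pairs. Depth, cell size and RNA content cannot be told apart in these counts.

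Another set followed Gm42418, the row left out of the totals. Cmss1 had a mean of 4.86 thinned counts and r = 0.60 with the Gm42418 share of a well, Lars2, a mitochondrial leucyl-tRNA synthetase, 0.54, Cdk8, a kinase of the Mediator complex, 0.52, Gm26561 0.50 and Camk1d 0.45. Their r with depth was 0.13, 0.35, 0.02, 0.34 and 0.24. Whether reads of ribosomal RNA were counted in these rows was not tested. Cmss1 and Lars2 had r = 0.59. Malat1, a nuclear RNA, was found in 100% of wells with a ratio of 2.21 and went with neither measure (r = 0.07 with depth and -0.06 with the Gm42418 share).

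**Figure D4:**
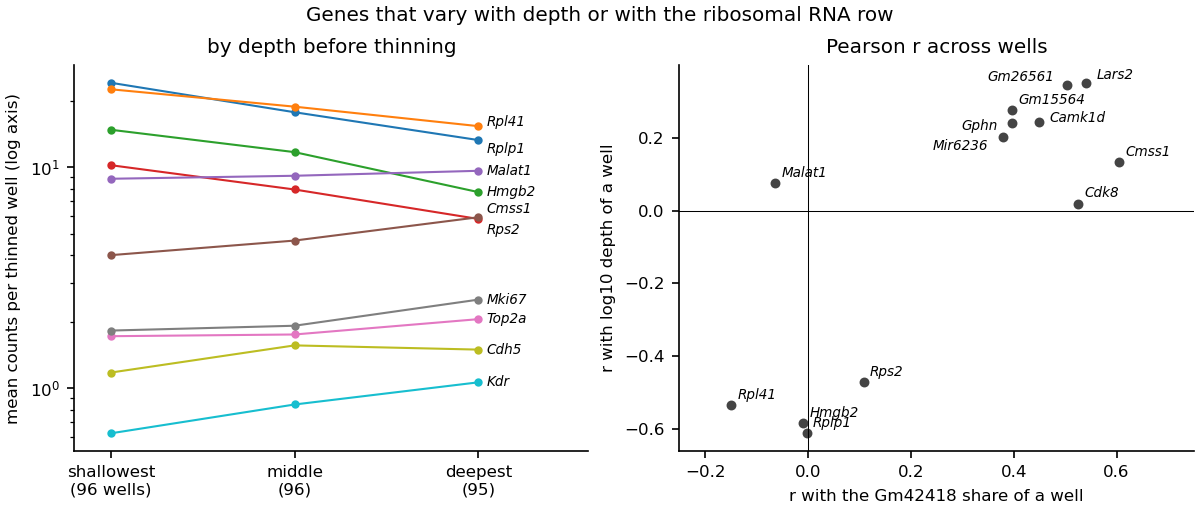
Left, mean thinned counts of named genes in the 96 shallowest, 96 middle and 95 deepest AGM positive wells (logarithmic axis): Rplp1 and Hmgb2 decline with depth, while Mki67 and Cmss1 do not. Right, Pearson r across 287 wells of log2(1 + thinned count) with the Gm42418 share (x) and with log10 depth (y), where Cmss1 lies at 0.60 and 0.13 and Rplp1 at -0.003 and -0.61.

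Taken over all genes, wells shared few patterns. Of 3405 genes found in 10% or more of wells, the 5.795e+06 pairs had a median r of -0.001, a 99th percentile of 0.157, and 791 pairs with r of 0.3 or more. Of these, 597 held at least 1 ribosomal protein gene, 71 of the others at least 1 of 8 genes that go with Gm42418, and 123 neither. Among the called genes, average linkage gave 9 modules of 3 or more genes with 38 genes in all. The largest held Cmss1, Lars2, Camk1d, Cdk8, Gm26561, Gphn and Gm15564 with a median r of 0.46. In the other 8, at least 3 genes of each module had their highest count in the same well, as Ptpn11, Gm26816, Ica1l, Lrrc20 and 6820431F20Rik did. Tie1 and Ramp2, the adrenomedullin receptor subunit, had the highest r of the 120 pairs of endothelial genes, 0.23, whose median was 0.04: Ramp2 was found in 29 of the 61 wells with Tie1 (47.5%) and in 48 of the 226 without it (21.2%). The median r was 0.07 over 10 arterial pairs, 0.03 over 10 venous pairs, 0.004 over 210 S phase pairs and 0.01 over 378 G2/M pairs.

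The genes that went with the summed lists depended on the thinning draw. Of the 10 genes with the highest r to each list sum, another thinning draw kept 1 above the 99th percentile for the arterial, 1 for the venous, 0 for the haemogenic, 0 for the S phase and 3 for the G2/M list. On the first draw, Spearman's measure in place of Pearson's kept 7, 10, 10, 9 and 10. Calcrl, the receptor that Ramp2 serves, went with the arterial list, with r = 0.25 in one draw, 0.18 in another and 0.17 in unthinned wells, against 99th percentiles of 0.15, 0.15 and 0.17. Itga6, an integrin of basement membrane, went with the venous list (0.19, 0.22 and 0.28, against 0.17, 0.18 and 0.21), as did Bach1, a haem-binding repressor. Rap1a went with the haemogenic list (0.16, 0.15 and 0.15, against 0.14 in each). Over all genes, and not the leading 10 alone, those above the 99th percentile in both draws and in unthinned wells numbered 2 for the arterial, 2 for the venous, 1 for the haemogenic, 1 for the S phase and 5 for the G2/M list. For the endothelial sum, chosen for this after the others had been seen, they numbered 10, among them Col4a1 (0.25, 0.26 and 0.36) and Col4a2 (0.26, 0.20 and 0.31), the collagen IV chains of the vessel basement membrane, and the receptor phosphatases Ptprg and Ptprm. All these r values are low, and in sparse counts a weak correlation is no finding.

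Red cell transcripts were the last pattern shared by several genes. Alas2, the first enzyme of haem synthesis in red cells, was found in 77.6% of AGM positive wells, against 24.9% of AGM negative wells, 61.5% of yolk sac positive wells, 8.70% of control RNA wells and 12.5% of negative control wells. Per 1000 haemoglobin counts, the 12 erythroid genes in the table had 6.65 counts in the AGM positive pool and 8.20 in the AGM negative pool. They had 6.59 in the yolk sac positive and 6.52 in the yolk sac negative pool. Control RNA wells had 7.69 (22 counts) and negative control wells 8.73 (13 counts). The ratio thus lay between 6.52 and 8.73, with few counts behind the control wells. The source of these transcripts was not tested. Cdh5, for comparison, had 1.97, 0.342, 2.72 and 0.0161 counts per 1000 haemoglobin counts in the 4 pools.

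Leiden clustering of the 299 wells gave 8 clusters of 16 to 72 wells, with 1.53% of the variance on the first component and 17% on 20 components. No cluster had more than 1 fixed cell type marker among its 10 leading genes, so none is named. In most of them the leading genes drew much of their count from 1 well, with a median of 37.1% to 72.9% in clusters 1, 2, 3, 4 and 7. Cluster 6, of 16 wells, had the highest ratio, 16.4 erythroid counts per 1000 haemoglobin counts, against 4.74 to 7.72 in the other 7. Its wells had 5.25 to 37.1 with a median of 16.4, against 0 to 19.4 with a median of 5.63 in the other 283 wells. The base of this ratio was lower in cluster 6, with a median haemoglobin share of 16.03%, against 24.71% in the other wells. In CPM cluster 6 stood less far apart. The erythroid list had 4240 CPM there and 2196 CPM in the other wells, with 3378 CPM in cluster 5 and 2990 CPM in cluster 8. The leading genes of cluster 6 included Slc25a21, March3, Prkca, Atp8a1, Gm15564, Lars2, Reln, Gm26561 and Mir6236. Its median Gm42418 share was 15.8%, against 10.4% over all the pool's wells. Cdh5 was found in 15 of the 16 wells and in 251 of the other 283. The endothelial list stood at 2800 CPM in cluster 6 and 3951 CPM in the other wells, and the G2/M list at 8717 and 5979 CPM. Since these genes took part in the clustering, the values describe the cluster and test nothing, and whether such wells hold more than 1 cell was not tested beyond the Scrublet scores above. Across the pool's wells the erythroid sum had r = -0.26 with the endothelial sum and 0.22 with the G2/M sum. Slc25a21, a mitochondrial carrier (0.31), Reln (0.26) and Ank1, the red cell ankyrin (0.26), went with the erythroid sum and stayed above the 99th percentile in another draw and in unthinned wells.

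**Figure D5:**
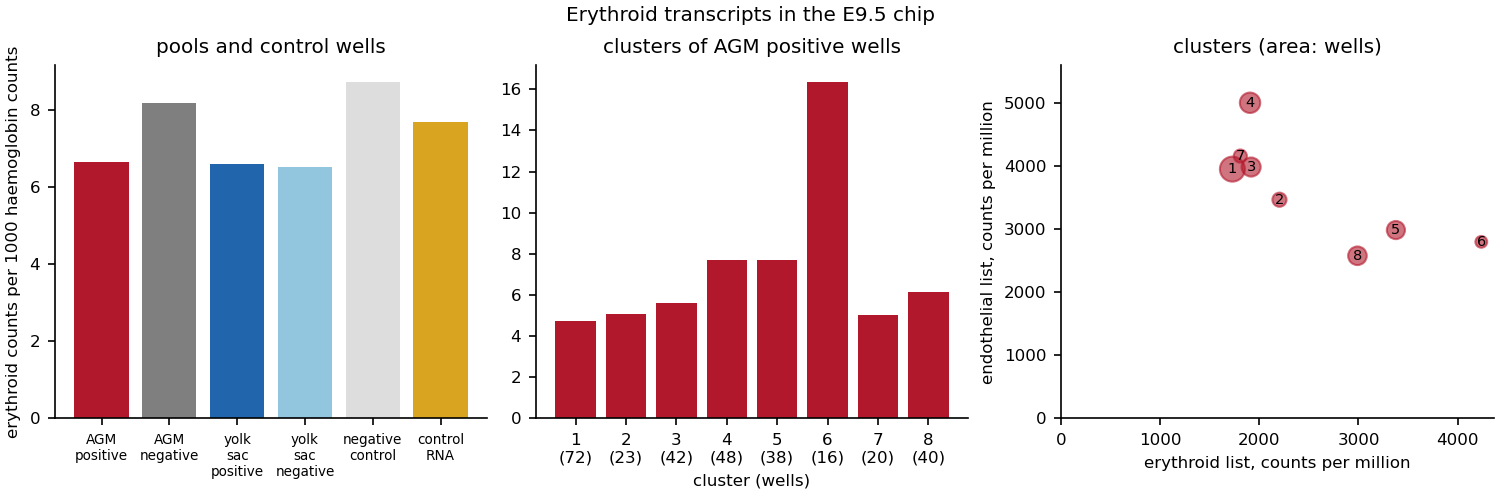
Counts of 12 erythroid genes per 1000 haemoglobin counts in the pools and control wells of the E9.5 chip (left, 6.65 in AGM positive and 6.52 to 8.73 in the others) and in the 8 clusters of AGM positive wells (middle, 16.4 in cluster 6, number of wells in brackets), and the erythroid against the endothelial list of each cluster in CPM (right, area by wells). Bars are sums over wells with no replicate.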

How the data were processed

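Single sorted cells had been processed on an ICELL8 chip, with control wells, and sequenced on a NextSeq 500, per the labels' protocols. The deposited E9.5 table holds raw whole-number counts per gene and well, with a metadata file that gives each well's State. Per the submitters' processing notes the authors used FastQC, cutadapt and STAR with mm10 (GRCm38); versions, the counting tool, strand and molecular identifiers are not given in the sources used here, so counts may be PCR copies and overlapping genes cannot be told apart. The table has 20575 rows and 1378 wells; of 4068 rows with an Ensembl identifier 3993 took a symbol from GENCODE vM21. Totals leave out 12 haemoglobin rows, 21 mitochondrial rows and Gm42418.

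Counts were summed per pool, scaled to CPM and compared as log2 ratios with exact conditional binomial intervals; 0 counts took a floor of 3 per pool. Called means at least 2-fold apart with 50 or more counts in the higher pool. Shares have exact (Clopper-Pearson) intervals. Wells were thinned to 2000 counts without replacement; r is Pearson's on log2(1 + count). Clusters came from scanpy 1.11.5 (2000 genes, 20 components, 15 neighbours, resolution 1). The ratios and Fano ratios were tested on simulated data. Named genes were the 12 most apart each way per comparison, the 15 highest in the pool and the 25 that vary most, with Gm-numbered, Rik, ribosomal protein and unnamed rows left out of the pool comparisons. The members and lists were chosen with earlier results of these data known. Alternatives changed the well filter, doublets, thinning, totals, scaling, count filter, class limit and highest wells.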

Additional observations from a re-analysis of the deposited data

How the results depend on the processing

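The class shares depend on how many counts a well is read at. The arterial share of 28.9% was 12.04% at 1000 counts per well, 54.3% at 4000, 51.5% without thinning, 16.2% with all rows in the total, 8.71% with 1 gene more required, 63.1% with 1 fewer and 18.5% without Mecom. The venous share of 26.5% was 12.4%, 62.8%, 53.8%, 12.5%, 8.01% and 69.0% under the first 6 of these settings, and 34.3% in wells with 3 or more of the 5 markers. The haemogenic share of 5.57% was 2.01%, 17.8%, 17.7%, 2.36%, 0.697% and 35.5%, and 2.44% without Gfi1b and Kit. The cycling share of 100% was 94.6% at 1000 counts.

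The 114 varying genes became 34 at 1000 counts, 172 with a mean of 0.02 or more, 65 with a mean of 0.1 or more and 22 without each gene's highest well. Against the AGM negative pool, a filter of 20 counts gave 875 higher and 1320 lower genes, no filter 3225 and 3876, and all counts in the total 875 lower. Against the yolk sac positive pool, a filter of 20 counts gave 353 higher and 561 lower, no filter 2324 and 3174, equal weight per well 84 higher, the highest wells left out 71 higher, and wells with 3 or more markers 95 lower. Of each list's 10 leading genes, another draw kept 1 arterial, 1 venous, 0 haemogenic, 0 S phase and 3 G2/M genes above the 99th percentile, unthinned wells 2, 6, 1, 3 and 6, and Spearman's measure 7, 10, 10, 9 and 10. Clusters numbered 3 and 13 at resolutions 0.5 and 1.5, against 8 at 1. The log2 ratio of Kdm6b to yolk sac turned to -0.020 without its highest well; of 464 recomputed ratios of named genes, 8 left their interval, and the one other change of sign was Cldn5 to yolk sac, which was not called, at -0.04 in wells with 3 or more markers, against 0.68. The other 70 alternatives of the main results stayed within their range. No paired analysis was possible because each pool is 1 sample. The lists added after seeing the data were the arterial without Mecom, the venous without Dab2 and the haemogenic without Gfi1b and Kit. Leaving out highest wells was also added then. Depth limits all low genes: at 245 CPM, the level of Mecom, a well thinned to 2000 counts has under 1 count on average.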

Other observations

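Receptors, ligands and a target gene of signalling not described above showed where the pool and yolk sac endothelium were alike and where they were not. Plxnd1, the semaphorin receptor of vessels, stood at 188 CPM in the AGM positive pool, 12.2 CPM in the AGM negative pool and 189 CPM in the yolk sac positive pool, and Nrp1, a co-receptor of semaphorins and vascular endothelial growth factor, at 229, 86.1 and 224 CPM. Tgfbr2, a receptor of transforming growth factor beta, stood at 45.6, 4.57 and 112 CPM, with a log2 ratio to the yolk sac positive pool of -1.30 (-1.80 to -0.82). Vegfc, a lymphatic and venous growth factor, stood at 66.3, 28.2 and 167 CPM (-1.33, -1.74 to -0.94). Id2, a target of bone morphogenetic protein signalling, stood at 49.7, 161 and 18.9 CPM (1.40, 0.62 to 2.24), and Edn1, endothelin 1, at 42.3, 5.33 and 20.0 CPM (1.08, 0.30 to 1.93). The genes of the bone morphogenetic protein and transforming growth factor list summed to 706, 791 and 683 CPM, and the 13 glycolysis genes to 7921, 10973 and 6142 CPM, in the AGM positive, AGM negative and yolk sac positive pools.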
